A study of Mus musculus with 6 samples.

Results

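The 10 genes described here are well-known transcriptional targets of the tumour suppressor p53: Cdkn1a, Mdm2, Ccng1, Bax, Bbc3, Pmaip1, Zmat3, Gdf15, Trp53inp1 and Sesn1. They were taken as a named list and matched by symbol to the count files. All 10 were found among the 40879 gene symbols of each library, had counts in every library and passed the filter on low counts. The libraries came from primary hepatic stellate cells of wild-type male mice, the retinoid-storing pericytes of the liver. In 3 libraries the cells had been kept for 24 h with vehicle, and in the other 3 with APB-R3, an engineered IL-18 binding protein that captures the cytokine IL-18. The labels name no other agent or allele and leave the animals' age and the vehicle's composition unstated. The APB-R3 dose reads 150 µg/ml in one place and 150 µg/kg in another, so its unit is uncertain. Nothing says that the libraries of a group came from separate animals or cultures, so a p-value here reflects the spread among these libraries alone, which may be technical.

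p53 is a transcription factor that is kept scarce by its own target, the ubiquitin ligase Mdm2. DNA damage, oncogene signals or disturbed ribosome assembly free it from Mdm2, and it then switches on genes that stop the cell cycle, repair DNA, dampen growth signalling or start apoptosis. In the liver, p53 and its target Cdkn1a are known for their part in the senescence of activated stellate cells, a state in which these cells stop dividing and make less matrix. Several of the same genes also answer to other factors, among them ATF4 and CHOP of the integrated stress response.

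p53 binds a response element of 2 abutting decamers, each made of 3 purines, a C, 2 bases that are A or T, a G and 3 pyrimidines, a pattern that reads the same on both strands. RefSeq promoter windows on the GRCm38.p6 build, each from 250 bases before to 50 bases after a transcription start, held 7 of the 10 members. Pmaip1, Zmat3 and Trp53inp1 had no entry. The read counts were made on another build, GRCm39, and no position from it is used here. The 5 best 20-base matches are shown because they are the stretches of these windows closest to what p53 reads, with the 4 central bases of each decamer in capitals.
Cdkn1a: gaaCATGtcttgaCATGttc
Ccng1: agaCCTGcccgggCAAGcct
Bbc3: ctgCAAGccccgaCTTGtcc
Bax: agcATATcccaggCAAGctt
Sesn1: aagCTTGtttttgCTGGcct

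The stretch of Cdkn1a matched the pattern at 19 of 20 bases. It lies at chr17:29090928-29090947 on the plus strand, 51 to 32 bases before the upstream one of the 2 starts listed for the gene. The stretch of Ccng1 also matched at 19 of 20 bases, at chr11:40755462-40755481 on the minus strand, 195 to 176 bases before the start. Of all 27025 genes with such a window, 0.107% held a stretch with at most 1 mismatch, counting both strands at once. The stretches of Bbc3 (chr7:16309486-16309505, plus strand), Bax (chr7:45467090-45467109, minus strand) and Sesn1 (chr10:41887266-41887285, plus strand) each matched at 17 of 20 bases. That is a common level of likeness, since 7.20% of genes had at most 3 mismatches. The best stretches of Mdm2 and Gdf15 matched at 15 bases. A match describes letters only, and the absence of one in this window does not bear on elements elsewhere in the gene.

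Each library was counted at the 3' ends of transcripts, with between 8323809 and 10792531 counts per library, and levels are CPM, the count scaled to the library total. Over the 3 vehicle and 3 APB-R3 libraries the 10 genes together took between 1551 and 1895 CPM. The 10 marker genes of stellate cells summed to 359 to 430 CPM with vehicle and to 388 to 406 CPM with APB-R3. Most of that was Dcn, at a mean of 308 CPM, and Hgf, at 46.6 CPM. Rgs5 had a mean of 14.0, Reln 11.5, Pdgfrb 8.12, Des 4.70 and Cygb 3.19 CPM. Lrat, the enzyme that stores retinol, had 1.68, Colec11 1.17 and Ngfr 0.131 CPM. The marker genes of sinusoidal endothelial cells summed to 5911 to 6667 CPM with vehicle and to 5594 to 6423 CPM with APB-R3. The libraries thus held much endothelial RNA, and which cell type the members' counts came from was not tested. Markers of macrophages summed to 323 to 482 CPM with vehicle and to 396 to 559 CPM with APB-R3. All values below are those of whole cultures, in which fewer cells of a type and less RNA per cell cannot be told apart. The 9 hepatocyte markers, each counted in at least 1 library, summed to 96.5 CPM in vehicle replicate 2, to 15.3 and 9.23 CPM in vehicle replicates 1 and 3 and to 6.37 to 15.4 CPM in the APB-R3 libraries, so that the 2 latter vehicle libraries lay within the APB-R3 range. APB-R3 replicate 1 had the lowest total and held the highest or lowest level of several members, so the values it moves by more than 1.5 times or turns are given with and without it.

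By edgeR's quasi-likelihood test, 0 of the 10 members had an adjusted p under 0.05, as did 0% of the 12776 genes tested. The adjusted p of each member was 0.9998. An unadjusted p under 0.05 was found for 0 of the 10 members and for 425 genes in all, or 3.33%. The number of genes called was also 0 with DESeq2, where 376 genes or 2.94% had an unadjusted p under 0.05, and with limma-voom, where 427 genes or 3.34% did. In no member did the 3 APB-R3 libraries lie all above or all below the 3 vehicle libraries, which 8.91% of tested genes did. The median log2 fold change of the members was 0.04, beside 0.003 over all genes tested. It was above 0 in 6 members, among 50.7% of all genes. The middle 50% of all genes ran from −0.11 to 0.12, and 8 of the 10 members fell within it, with Pmaip1 and Gdf15 above it. That band takes in tested genes with means down to 0.614 CPM, so it is not of genes of the members' level.

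**Figure D1:**
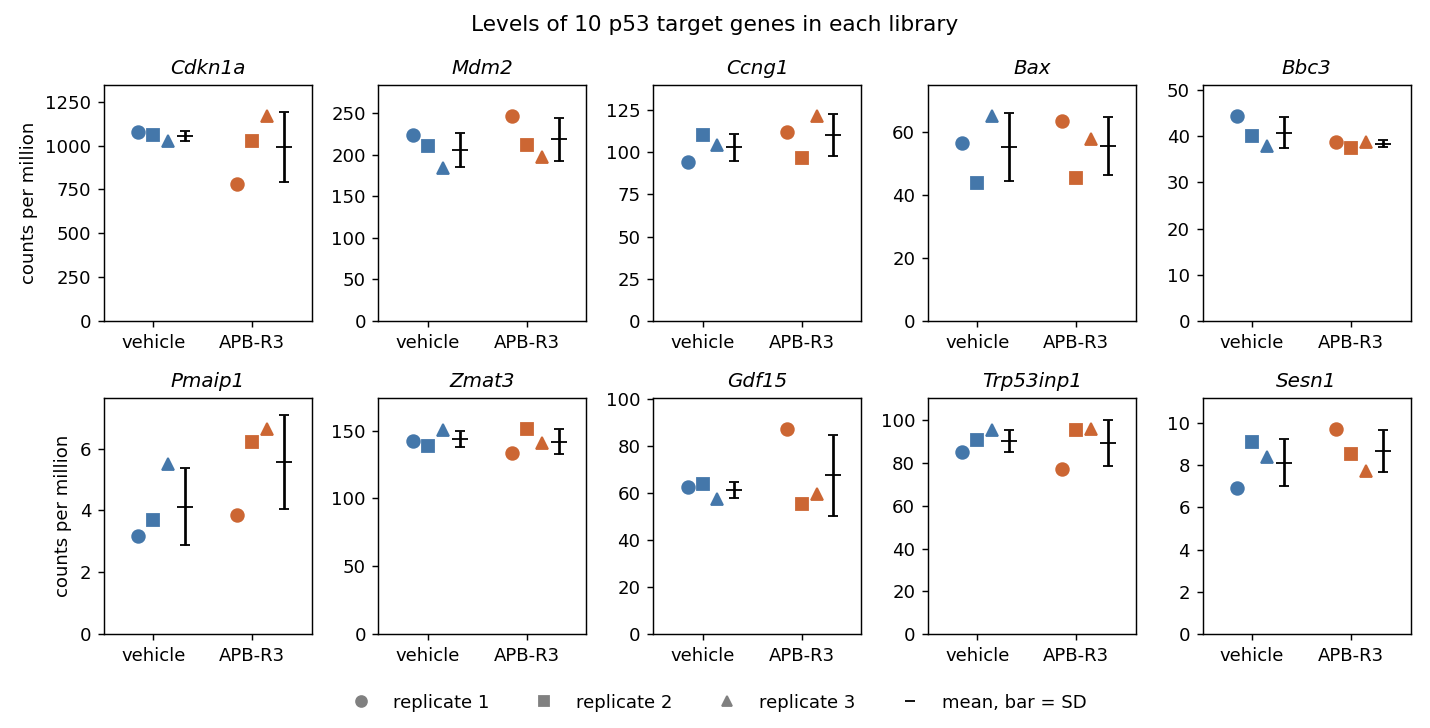
CPM of the 10 genes in each library, 1 panel per gene with its own vertical axis from 0. Points are libraries, with vehicle in blue and APB-R3 in orange and the marker shape giving the replicate number, and the black bar is the group mean with its SD (n = 3). The groups overlap in every panel, and APB-R3 replicate 1 (orange circle) lies lowest for Cdkn1a at 779 CPM and highest for Gdf15 at 87.2 CPM.

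Cdkn1a encodes p21, the inhibitor of cyclin-dependent kinases through which p53 halts the cell cycle. It was the most abundant member, above 99.3% of the tested genes. Vehicle replicates 1 to 3 had 1080, 1060 and 1024 CPM, and APB-R3 replicates 1 to 3 had 779, 1027 and 1170 CPM. The APB-R3 group thus held both the lowest and the highest library, on either side of a narrow vehicle group. The vehicle mean was 1055 ± 28.1 CPM and the APB-R3 mean 992 ± 198 CPM (SD, n = 3 each), and the log2 fold change was −0.09 (SE 0.11). Its 95% interval ran from 0.804-fold to 1.09-fold, and this and all later intervals are those of single genes, with no adjustment for how many were tested. Without APB-R3 replicate 1 the log2 fold change was 0.05. The level in that library was 27.3% below the mean of the other 5, which ran from 1024 to 1170 CPM. A deviation at least as large on the log2(CPM + 1) scale was seen in that library for 4.35% of the 6596 tested genes with a mean of at least 20 CPM.

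Mdm2 and Ccng1 are among the members that feed back on p53. Mdm2 marks p53 for breakdown, and Ccng1, or cyclin G1, recruits the phosphatase PP2A to activate Mdm2. Mdm2 had 224, 210 and 184 CPM in vehicle replicates 1 to 3 and 247, 211 and 197 CPM in APB-R3 replicates 1 to 3. APB-R3 replicate 1, the lowest library for Cdkn1a, was the highest for Mdm2. The log2 fold change of Mdm2 was 0.08 (SE 0.10), with an interval from 0.909-fold to 1.23-fold, and it turned to −0.026 without that library. Without vehicle replicate 3, the lowest library for Mdm2, it was 4.5e-06. The ratio of Mdm2 to Cdkn1a was 0.316 in APB-R3 replicate 1 and between 0.168 and 0.207 in the other 5 libraries. Ccng1, the other gene with a close match to the response element, had 94.3, 110 and 104 CPM in vehicle and 112, 96.7 and 121 CPM in APB-R3. Its libraries were interleaved, and the log2 fold change was 0.09 (SE 0.11), with an interval from 0.912-fold to 1.24-fold. Leaving out APB-R3 replicate 3 gave Ccng1 0.023 and leaving out vehicle replicate 1 gave 0.027, while the values were 0.15 with vehicle replicate 2 omitted and 0.17 with APB-R3 replicate 2 omitted. Its level in APB-R3 replicate 1 lay inside the range of the other 5 libraries.

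Bax, Bbc3 and Pmaip1 act in apoptosis at the mitochondrion. Bax forms pores in the outer membrane, while Bbc3 (PUMA) and Pmaip1 (NOXA) are BH3-only proteins that free or activate the pore formers. Bax had 56.5, 43.8 and 65.1 CPM in vehicle replicates 1 to 3 and 63.6, 45.3 and 57.6 CPM in APB-R3 replicates 1 to 3. The vehicle libraries spanned the whole range, and the group means were nearly equal, at 55.1 ± 10.7 and 55.5 ± 9.30 CPM (SD, n = 3 each). The log2 fold change of 0.002 (SE 0.14) had an interval from 0.815-fold to 1.23-fold, and its sign is not fixed: it was −0.003 with limma-voom, −0.11 without APB-R3 replicate 1, −0.13 without vehicle replicate 2 and −0.016 without APB-R3 replicate 3. After Pmaip1, Gdf15 and Bax varied most between libraries, with coefficients of variation (CV, the SD over the mean) of 18.2% and 16.2% over 6 libraries. Without APB-R3 replicate 1 the CV was 5.80% for Gdf15 and 16.7% for Bax. The 200 tested genes nearest in level had a median CV over 6 libraries of 9.03% for Gdf15 and 9.82% for Bax.

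Bbc3 had 44.4, 40.0 and 37.8 CPM in vehicle and 38.8, 37.4 and 38.7 CPM in APB-R3. The APB-R3 libraries lay close together, inside the lower part of the vehicle range except for replicate 2, the lowest of all 6. The log2 fold change was −0.09 (SE 0.12), with an interval from 0.783-fold to 1.12-fold. It was −0.031 without vehicle replicate 1, the highest library. Pmaip1 was the least abundant member, with 33, 39 and 58 counts, or 3.16, 3.69 and 5.52 CPM, in vehicle and 32, 67 and 67 counts, or 3.84, 6.21 and 6.65 CPM, in APB-R3. The 2 highest libraries were APB-R3 and the lowest was a vehicle library, but vehicle replicate 3 lay above APB-R3 replicate 1. Pmaip1 had the largest fitted difference of the 10, a log2 fold change of 0.43 (SE 0.35), and also the widest interval, from 0.810-fold to 2.25-fold. When single libraries were left out, its log2 fold change ran from 0.27 to 0.69, the highest without vehicle replicate 3 and 0.63 without APB-R3 replicate 1. Counting error alone would give a CV of 14.2% at this depth, and the CV over the 6 libraries was 30.2%. The 200 tested genes nearest to Pmaip1 in level had a median CV of 28.5%, so its spread was near that of genes of like level.

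Zmat3 encodes a zinc-finger protein that binds RNA and is part of the tumour-suppressing arm of p53. It was the steadiest member, with a CV of 4.92% over the 6 libraries. It had 143, 139 and 151 CPM in vehicle and 133, 151 and 140 CPM in APB-R3. The log2 fold change was −0.03 (SE 0.10), with an interval from 0.856-fold to 1.13-fold. It was 0.008 without APB-R3 replicate 1 and 0.003 without vehicle replicate 3.

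Gdf15 encodes a secreted cytokine of the TGF-beta family that tissues release under stress. It had 62.4, 63.6 and 57.3 CPM in vehicle replicates 1 to 3 and 87.2, 55.3 and 59.7 CPM in APB-R3 replicates 1 to 3. APB-R3 replicate 1 was 46.2% above the mean of the other 5 libraries, a deviation that 2.44% of the genes with at least 20 CPM reached in that library. The means were 61.1 ± 3.37 and 67.4 ± 17.3 CPM (SD, n = 3 each), and the log2 fold change was 0.13 (SE 0.14), with an interval from 0.894-fold to 1.34-fold. Without APB-R3 replicate 1 the log2 fold change turned to −0.10. The genes of the Gdf15 receptor, Gfral and its co-receptor Ret, had 0 counts in all 6 libraries, which allows up to 0.0494 CPM (3 counts over all libraries, counting error only).

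Trp53inp1 and Sesn1 link p53 to stress responses, Trp53inp1 through autophagy and p53-dependent cell death and Sesn1, a sestrin, through the restraint of mTORC1 signalling. Trp53inp1 had 85.0, 90.8 and 95.4 CPM in vehicle and 77.2, 95.6 and 96.2 CPM in APB-R3. As for Cdkn1a, the APB-R3 libraries held both ends of the range, with replicate 1 lowest and replicate 3 highest. The log2 fold change was −0.016 (SE 0.11), with an interval from 0.846-fold to 1.16-fold. It turned to 0.07 without APB-R3 replicate 1 and to 0.02 without vehicle replicate 3. Sesn1 had 6.90, 9.08 and 8.38 CPM in vehicle and 9.73, 8.52 and 7.74 CPM in APB-R3. The lowest library was vehicle replicate 1 and the highest APB-R3 replicate 1, and the log2 fold change of 0.09 (SE 0.25) turned to −0.0097 without the latter and to −0.021 without the former. The CV of Sesn1, 11.8%, was close to the 10.9% that counting alone would give. It was below the median CV of 20.5% of the 200 tested genes nearest in level. The interval of Sesn1 ran from 0.739-fold to 1.52-fold.

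**Figure D2:**
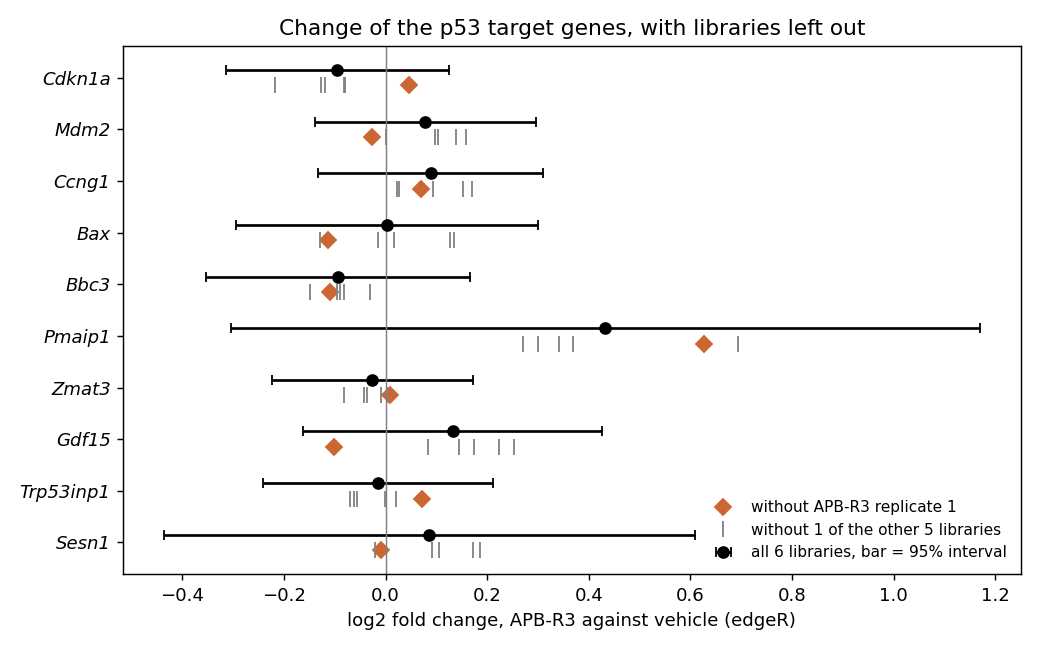
The log2 fold change of each gene, APB-R3 against vehicle, from edgeR, with its 95% interval in all 6 libraries (black), without APB-R3 replicate 1 (orange diamonds) and without each of the other 5 libraries (grey ticks). Every interval includes 0. The diamonds of Cdkn1a (0.05) and Gdf15 (−0.10) lie across 0 from the black points.

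The members lay on both sides of the other libraries in APB-R3 replicate 1. Of the 10, 3 had their highest level of all libraries there (Mdm2, Gdf15 and Sesn1) and 3 their lowest (Cdkn1a, Zmat3 and Trp53inp1). Of all tested genes with at least 20 CPM, 21.8% were highest and 25.2% lowest in this library, so these counts of members are near the shares of those genes. Sesn1 and Pmaip1 lay below 20 CPM, so the shares given here are not of genes of their level. The median absolute deviation of the members from the mean of the other 5 libraries, on the log2(CPM + 1) scale, was 0.26 in this library and between 0.058 and 0.12 in the others. Over the genes with at least 20 CPM it was 0.14 there and between 0.085 and 0.11 in the others. The signed median of the members there was 0.03, with some above and some below the other libraries. Without Cdkn1a the members' summed level was 772 CPM in this library and between 708 and 725 CPM in the other 5. APB-R3 replicate 3 was the highest library for 4 members, Cdkn1a, Ccng1, Pmaip1 and Trp53inp1, and the lowest for 0, where 17.5% of the genes with at least 20 CPM were highest and 11.8% lowest in it. Activated stellate cell markers summed to 593 CPM in APB-R3 replicate 1, the lowest of the 6 libraries, and endothelial markers to 5594 CPM, also the lowest. Single markers did not all go that way. Lox (11.3 CPM) and the endothelial Lyve1 (1889 CPM) were highest there, and Timp1 (39.3 CPM) was not lowest. Acta2 (103 CPM) and Col1a1 (133 CPM) were not lowest either, but lay below every vehicle library. Col1a2, Col3a1, Tagln and every other endothelial marker were lowest there. Acta2 was lower in every APB-R3 library (80.6 to 108 CPM) than in any vehicle library (129 to 133 CPM). Timp1 was higher in every APB-R3 library (37.9 to 40.3 CPM) than in any vehicle library (30.8 to 36.5 CPM). Of all tested genes, 4.16% were lower and 4.75% higher in this sense. The part of stellate and endothelial cells in the levels of the members was not tested.

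**Figure D3:**
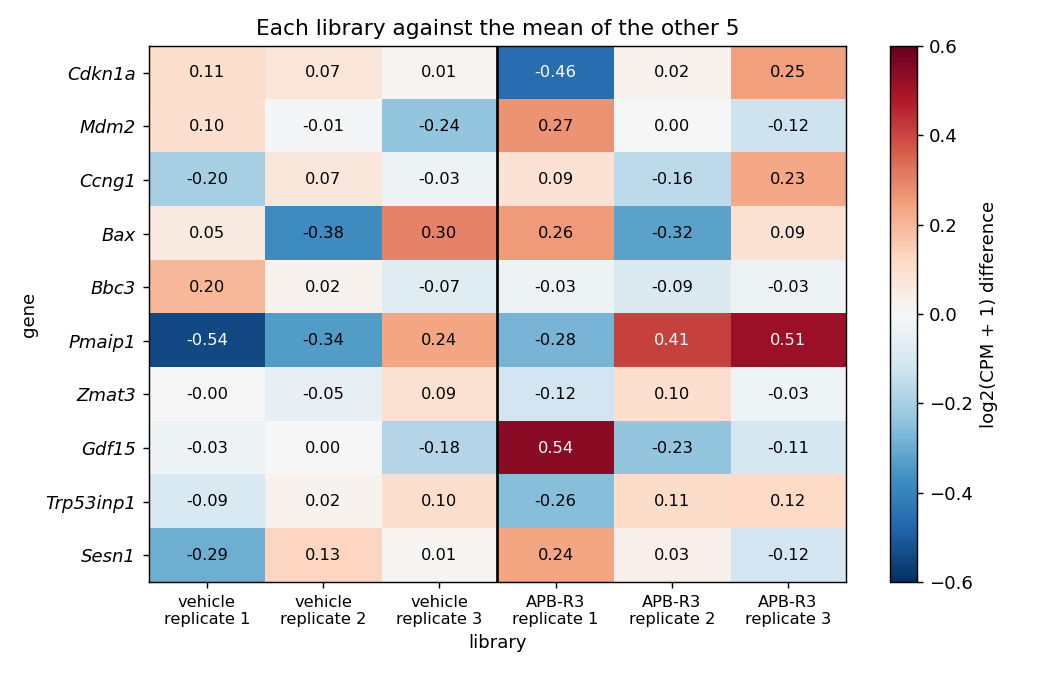
Difference of each library from the mean of the other 5 on the log2(CPM + 1) scale, with genes in rows and libraries in columns and a line between vehicle and APB-R3. The column of APB-R3 replicate 1 holds both a low value for Cdkn1a (−0.46) and a high one for Gdf15 (0.54), while Pmaip1 is low in vehicle replicate 1 (−0.54) and high in APB-R3 replicate 3 (0.51).

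By level the members fell into a fixed order at the ends. Cdkn1a (1024 ± 131 CPM, SD, n = 6) was followed by Mdm2 (212 ± 21.8 CPM) and Zmat3 (143 ± 7.03 CPM), and the ranges of these neighbours did not overlap. Ccng1, Trp53inp1, Gdf15, Bax and Bbc3 came next, and the ranges of each pair of neighbours among them overlapped. Sesn1 (8.39 ± 0.992 CPM) and Pmaip1 (4.85 ± 1.47 CPM) were the lowest, apart from Bbc3 (39.5 ± 2.55 CPM). Cdkn1a alone took between 50.2% and 61.7% of the counts of the 10 genes. A 3' count does not grow with transcript length and was not divided by it, but how well each 3' end is primed and mapped differs between genes.

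Trp53, the gene of p53 itself, had 51.6, 44.1 and 60.2 CPM in vehicle replicates 1 to 3 and 43.4, 57.9 and 41.8 CPM in APB-R3 replicates 1 to 3. Its groups overlapped, and the log2 fold change was −0.12 (SE 0.14), or between −0.30 and −0.0092 with single libraries left out and −0.068 without APB-R3 replicate 1. Mdm4, which binds and inhibits p53 beside Mdm2, had a vehicle mean of 42.8 ± 1.98 CPM and an APB-R3 mean of 41.4 ± 3.93 CPM (SD, n = 3 each). Of 24 listed genes of p53 and its regulators, 22 were tested and 0 passed in either direction, with a median log2 fold change of −0.026, which was −0.010 without APB-R3 replicate 1 and 0.05 when APB-R3 replicate 3 was left out instead. The smallest p-values were those of Sirt1, a deacetylase of p53, at −0.26 (SE 0.16), Ep300, an acetyltransferase and coactivator, at −0.17 (SE 0.11), or −0.11 without APB-R3 replicate 1, and Cdkn2a, which encodes the Mdm2 inhibitor ARF and the kinase inhibitor INK4a, at −0.20 (SE 0.13). Cdkn2a had 37.1, 35.9 and 38.1 CPM in vehicle and 34.7, 29.9 and 32.7 CPM in APB-R3, so its groups did not overlap. The same held for Ep300, and in the other direction for Ppp1r13l, an inhibitor of p53 at 6.57 ± 0.992 and 7.72 ± 0.249 CPM (SD, n = 3 each) that is named after its values were seen. That makes 2 lower and 1 higher of the 22 tested, where 4.16% of all tested genes were lower and 4.75% higher in this sense. The p53 relatives Trp63 and Trp73 had 0 counts in all 6 libraries.

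Of a further 39 p53 target genes, 38 were tested and 0 passed in either direction. Their median log2 fold change was −0.02, with 16 above and 22 below 0, or 0.0071 with 19 on either side without APB-R3 replicate 1. Beside 3.33% of all tested genes, 1 of the 38 had an unadjusted p under 0.05. That gene was Polk, a DNA polymerase that copies past damaged bases, with a vehicle mean of 45.3 ± 6.82 CPM, an APB-R3 mean of 36.4 ± 5.31 CPM (SD, n = 3 each) and a log2 fold change of −0.32 (SE 0.14). The groups of Polk overlapped, and its log2 fold change ran from −0.43 to −0.23 with single libraries left out. Its unadjusted edgeR p was 0.17 without vehicle replicate 1, 0.079 without vehicle replicate 3 and 0.14 without APB-R3 replicate 2. Zfp365 had −0.42 (SE 0.26) and the death receptor gene Fas −0.30 (SE 0.27).

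Cell cycle genes that p21 represses through the DREAM complex, a transcriptional repressor of the cell cycle, were tested for 19 of 20 members, and 0 passed in either direction. Their median log2 fold change was −0.15, with 6 above and 13 below 0. APB-R3 replicate 1 was the lowest of the 6 libraries for 11 of these 19 genes, against 25.2% of the genes with at least 20 CPM, and the highest for 0. Many of the 19 lay below 20 CPM, down to 3.14 CPM, so that share is not of genes of like level. Without APB-R3 replicate 1 the median was −0.021, with 8 above and 11 below 0, and without vehicle replicate 3 it was −0.077. Ccnb1, the mitotic cyclin, had means of 8.68 ± 3.86 CPM with vehicle and 5.89 ± 1.36 CPM with APB-R3 (SD, n = 3 each), a log2 fold change of −0.56 (SE 0.32), or −0.13 without vehicle replicate 2. Top2a, a topoisomerase of dividing cells, had −0.22 (SE 0.15), or −0.021 without APB-R3 replicate 1. The mitotic kinase gene Plk1 had −0.28 (SE 0.19), or −0.11 without that library and −0.073 without vehicle replicate 2. Among 5 other inhibitors of cyclin-dependent kinases, all tested, 0 passed. Cdkn2b had 0.19 (SE 0.13), or 0.096 without APB-R3 replicate 1, Cdkn1c −0.12 (SE 0.11) and Cdkn1b −0.13 (SE 0.15). Cdkn1c had 60.2, 55.4 and 54.5 CPM in vehicle and 52.6, 54.3 and 50.1 CPM in APB-R3, so its groups did not overlap. That is 1 of the 5 genes, where 4.16% of all tested genes were lower in this sense.

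BCL2 family genes and related partners of Bax, Bbc3 and Pmaip1 were tested for 14 of 15 members, with 0 passing and a median of 0.05, or 0.0095 without APB-R3 replicate 1. The smallest p-values were those of Bnip3l, a mitophagy receptor, at −0.19 (SE 0.11), of Bak1, the pore former beside Bax, at −0.21 (SE 0.15), or −0.34 without that library, and of Bok, a relative of both, at 0.21 (SE 0.15), or 0.073 without vehicle replicate 1. Of 10 ATF4 and CHOP pathway genes 0 passed, and 9 lay above 0 with a median of 0.12, or 8 with a median of 0.077 without APB-R3 replicate 1. Vegfa, the vascular growth factor gene, had 26.6, 26.8 and 27.1 CPM in vehicle and 32.4, 29.9 and 28.2 CPM in APB-R3, and its groups did not overlap. Neither did those of Ddit3, the CHOP gene, named after its values were seen, with 36.8, 36.4 and 37.4 CPM in vehicle and 39.0, 42.1 and 39.2 CPM in APB-R3. These are 2 of 10 genes, where 4.75% of all tested genes were higher in this sense. Vegfa had a log2 fold change of 0.16 (SE 0.14), or 0.10 without APB-R3 replicate 1. The glutathione-degrading enzyme gene Chac1 had 0.29 (SE 0.25), or 0.035 without APB-R3 replicate 2, and the asparagine synthetase gene Asns 0.20 (SE 0.20), or 0.019 without APB-R3 replicate 1. Among paralogs of members, Ccng2 had 0.13 (SE 0.12) and Trp53inp2 −0.056 (SE 0.11), or −0.12 without that library.

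**Figure D4:**
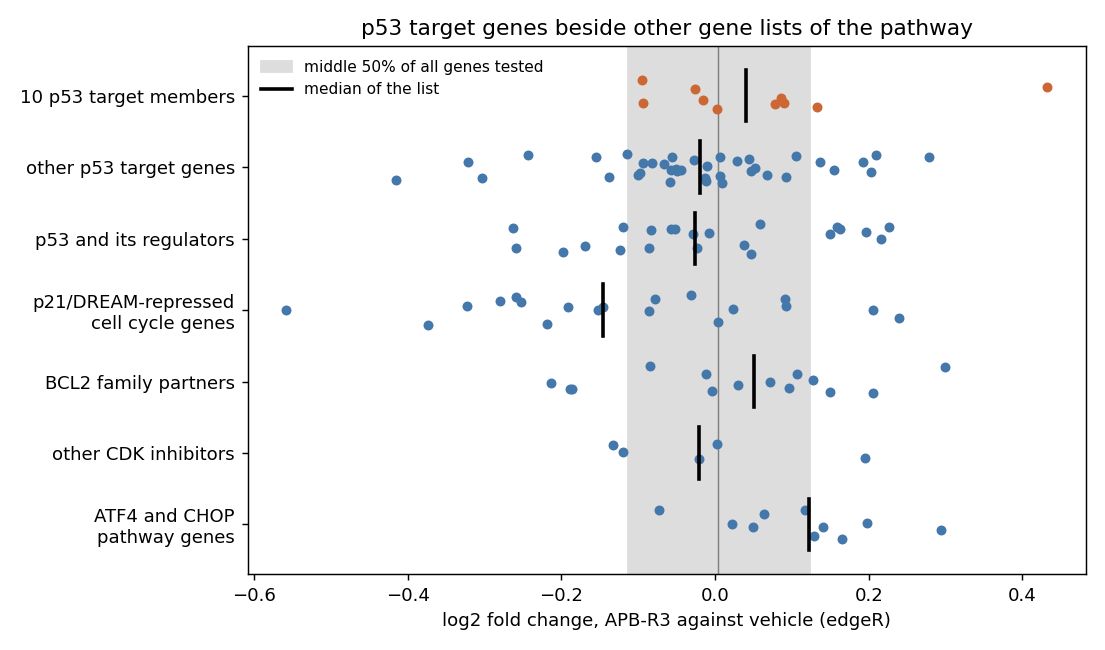
Each point is the log2 fold change of 1 tested gene, APB-R3 against vehicle, from edgeR, with the 10 p53 target genes in orange, other lists in blue and the median of each list as a black bar. The grey band is the middle 50% of all genes tested, from −0.11 to 0.12. The median of the members is 0.04, that of other p53 targets −0.02 and that of cell cycle genes −0.15, or −0.021 without APB-R3 replicate 1, which was the lowest library for 11 of the 19 cell cycle genes, and no gene shown passed the test.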

How the data were processed

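RNA had been taken with Trizol, and 500 ng went into each 3' library made with a Lexogen Quant-Seq kit, per the labels' protocols. bcl2fastq 2.20.0.422, fastp, STAR, HTSeq and the build GRCm39 are named in the submitters' processing notes. Not given in the sources used here are other versions, the strand setting, the annotation and any use of molecular identifiers. The authors deposited raw read counts per gene symbol, whole numbers without normalization, with 1 library per file and totals from 8323809 to 10792531. Headers inside the files carry other numbers than the titles, and each library has the group and number of its title.

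Genes were compared in edgeR 4.0.16 (R 4.3.3) over 12776 of 20496 genes with a count, kept by filterByExpr (minimum count 10, minimum total 15), with TMM factors, glmQLFit and glmQLFTest, treatment as the only term and two-sided p-values adjusted by Benjamini-Hochberg over all tested genes (threshold 0.05). SE is the log2 fold change over the square root of F. Alternatives were DESeq2 size factors, library totals, a filter of at least 5 CPM in 3 libraries or none at all, DESeq2 1.42.0, limma-voom (limma 3.58.1), a replicate block and each library left out. Leaving out both APB-R3 replicate 1 and vehicle replicate 2, setting single libraries against the other 5, and the pathway lists with 1 library left out were chosen after seeing the data. The code was tested on simulated data. No 2 libraries were copies: per degree of freedom, the chi-square between their counts was 5.54 to 13.6.

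The members and lists were chosen with earlier results of these data known. Named are the 10 members, Trp53, Mdm4, all listed paralogs and receptor genes, and, as no gene passed, the 3 tested genes of smallest p in each other list. The 7 pathway lists (117 entries) and 9 marker lists were all found by symbol. Promoter windows came from RefSeq (GRCm38.p6) and were scanned with no gap between decamers. In GENCODE M21, on that build, no other gene overlaps the last base of a member. Elsewhere in the gene, Gm45808 overlaps Bax and 9930024M15Rik overlaps Sesn1 on the same strand. AC167363.2 overlaps Cdkn1a on the opposite strand. What these overlaps did to the counts was not tested.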

Additional observations from a re-analysis of the deposited data

How the results depend on the processing

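In every alternative run, 0 of the 10 members passed, with adjusted p from 0.902 to 0.99998 and a lowest unadjusted p of 0.0561, that of Cdkn1a. Over all genes 0 passed with each setting except no low-count filter, where 20 genes or 0.0976% passed, and without vehicle replicate 3, where 1 did (Hp, a hepatocyte marker, named after its values were seen), so that with 1 library left out the number ran from 0 to 1. None of the 10 members was among these. With the filter that set aside genes under 5 CPM in 3 libraries, with other size factors and with DESeq2 all members kept the sign of their log2 fold change.

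Ccng1, Bbc3 and Pmaip1 kept their sign in all 14 alternatives. With 1 library left out, the log2 fold change ran from −0.22 to 0.046 for Cdkn1a, from −0.026 to 0.16 for Mdm2, from −0.13 to 0.14 for Bax, from −0.082 to 0.0083 for Zmat3, from −0.10 to 0.25 for Gdf15, from −0.070 to 0.073 for Trp53inp1 and from −0.021 to 0.19 for Sesn1. The members' median ran from −0.0021 to 0.094. It was −0.00068 without APB-R3 replicate 1, the library whose removal turned 7 members, all but Ccng1, Bbc3 and Pmaip1. With both that library and vehicle replicate 2 left out, the value was 0.060 for Cdkn1a, −0.00052 for Mdm2, −0.24 for Bax, −0.060 for Gdf15 and 0.087 for Trp53inp1, and the median 0.03. Bax had −0.0033 with limma-voom. Of the named genes of other lists, Gtse1 alone turned with 1 library left out, with values from −0.26 to 0.044. The cause of these turns was not tested.

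With the replicate block 0 genes and 0 members passed, 539 genes had an unadjusted p under 0.05, and the members' median was 0.04. Nothing in the labels says that a number marks a shared animal or day. The deviations of same-numbered libraries from their group means correlated across genes at 0.022, 0.027 and 0.048. Each was the highest for its library, but all were small, and the other pairs ran from −0.027 to −0.0031. Whether the numbers mark a shared source was not tested. Depth limits Pmaip1 and Sesn1, with 296 and 507 counts over all libraries.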

Other observations

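The p53 response element was also sought in the promoter windows of all tested genes, after the values of the members had been seen. Of 9932 tested genes with a window, 8 held a stretch with at most 1 mismatch: Cdkn1a, Ccng1, Gtse1, Rps27l, Mthfd1, Bank1, Bco1 and Calhm2. Their log2 fold changes were above 0 in 4 and below 0 in 4, and 0 had an unadjusted p under 0.05. Rps27l, a ribosomal protein paralog known as a p53 target, had 0.17, and Gtse1, a p53 target that takes p53 out of the nucleus, −0.09, or 0.04 without APB-R3 replicate 1. With up to 3 mismatches there were 646 genes, whose median log2 fold change was −0.0082 beside 0.0029 for all tested genes with a window. Of the 646, 14 had an unadjusted p under 0.05, where 425 of all 12776 tested genes, or 3.33%, did. That share includes tested genes without a window, and the share of the 9932 genes alone was not taken.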
